A study of Mus musculus with 8 samples.

Results

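The 7 genes studied here encode subunits of the GABA-A receptor (*Gabra2, Gabra3, Gabra4, Gabra5, Gabrb1, Gabrb2* and *Gabrd*) and were compared between the mouse hippocampus (HP) and pre-frontal cortex (PFC). They were taken from the table of normalized counts by their gene names, and all 7 were found among its 34620 names. The table holds 19 GABA-A receptor subunit genes in all, of which those near the 7 genes in the genome and those of low level are described below as well. RNA came from untreated male C57Bl6 mice, 7 to 9 weeks old by the labels, although one paragraph of the study's methods gives an older range. Each region has 4 libraries, and each library was made from the pooled tissue of 2 mice, so the spread between libraries is a spread between pools. By the study's methods 8 mice gave the tissue of both regions, but the labels do not say which HP and PFC libraries share mice, and the regions were compared as unpaired. Total RNA of whole dissected regions was depleted of ribosomal RNA, amplified and sequenced, and neurons and glia of all kinds are mixed in each library. No group carried an allele, a transgene or a treatment.

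GABA-A receptors are chloride channels that open when GABA, the main inhibitory transmitter of the brain, binds between their subunits. A typical receptor is a ring of alpha, beta and gamma subunits, in which the alpha subunit shapes the affinity for GABA, the speed of the current and the response to benzodiazepines. The alpha5 subunit is known for its high level in hippocampal pyramidal neurons, where it carries much of the tonic inhibition. The delta subunit takes the place of the gamma subunit in receptors outside synapses, mostly together with alpha4 in forebrain neurons, and is known from dentate granule cells, thalamus, striatum and cortical interneurons. The beta subunits take part in GABA binding and in the traffic and anchoring of the receptor.

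The alpha subunits differ in a residue of the benzodiazepine site, which stands in the extracellular part of the protein. Receptors with a histidine there bind diazepam and those with an arginine do not. The coding sequences of this stretch are shown because they divide the 4 alpha subunits studied here into a diazepam-sensitive and a diazepam-insensitive kind, by which the shares below can be read. They come from the GENCODE M1 transcripts of build NCBIM37, run 5′ to 3′ along the transcript, and lie in 1 coding exon each, on the minus strand, at chr5:71405726-71405764 (*Gabra2*), chrX:69746489-69746527 (*Gabra3*), chr5:72032373-72032411 (*Gabra4*) and chr7:64744243-64744281 (*Gabra5*). The capitals mark the codon of that residue.
Gabra2: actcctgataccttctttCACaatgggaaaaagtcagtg
Gabra3: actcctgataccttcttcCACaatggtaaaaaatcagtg
Gabra5: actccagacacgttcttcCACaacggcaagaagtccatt
Gabra4: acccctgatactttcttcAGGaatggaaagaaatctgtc
The codon CAC of *Gabra2, Gabra3* and *Gabra5* encodes histidine, and AGG of *Gabra4* encodes arginine. Over these 39 bases *Gabra2* and *Gabra3* differed at 3 positions, while *Gabra4* and *Gabra5* differed at 13.

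The libraries held 3164964 (HP replicate 4) to 16636500 (HP replicate 1) reads assigned to genes. Where no read was counted, up to 3 reads remain possible, or 1.30 to 6.93 normalized counts depending on the library, and this limit covers counting error only. Every one of the 7 genes had reads in every library, from 67 reads of *Gabrd* in HP replicate 4 to 6080.0 of *Gabrb2* in HP replicate 1, and all 7 passed the filter on low values. The limma fit took in all 19789 genes whose mean reached 1 normalized count, on the scale log2(normalized count + 1), and p-values were adjusted over all of them by Benjamini-Hochberg. Positive log2 fold changes stand for higher values in the HP.

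Of the 7 genes, *Gabra5* and *Gabra2* were higher in the HP, *Gabra3* and *Gabrd* were higher in the PFC, and *Gabra4, Gabrb1* and *Gabrb2* did not pass the threshold of an adjusted p of 0.05 in limma. The 2 genes higher in the HP stand beside 2.55% of all genes tested, and the 2 higher in the PFC beside 3.13%. In either direction 4 of 7 passed, beside 5.68% of all genes. The same 4 genes passed with edgeR and with DESeq2 on the recovered reads, where 5.91% and 7.39% of all genes did. The values of the regions did not overlap in 5 of the 7 genes, beside 11.8% of all genes tested. The 7 genes were chosen with earlier results of these data known, so these counts describe the genes and are not independent evidence. The median log2 fold change of the 7 was -0.16, beside 0.0038 for all genes, since the differences ran both ways. The coefficient of variation was smaller in the HP than in the PFC for *Gabra5* (5.96% and 23.7%), *Gabra2* (9.48% and 26.4%), *Gabra3* (4.44% and 14.7%), *Gabrb2* (5.16% and 6.30%) and *Gabrd* (20.97% and 21.4%). It was larger in the HP for *Gabra4* (7.30% and 5.02%) and *Gabrb1* (11.1% and 7.62%), and none of these differences in spread was tested. In tissue RNA of this kind, fewer cells of a type and less RNA per cell cannot be told apart.

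**Figure D1:**
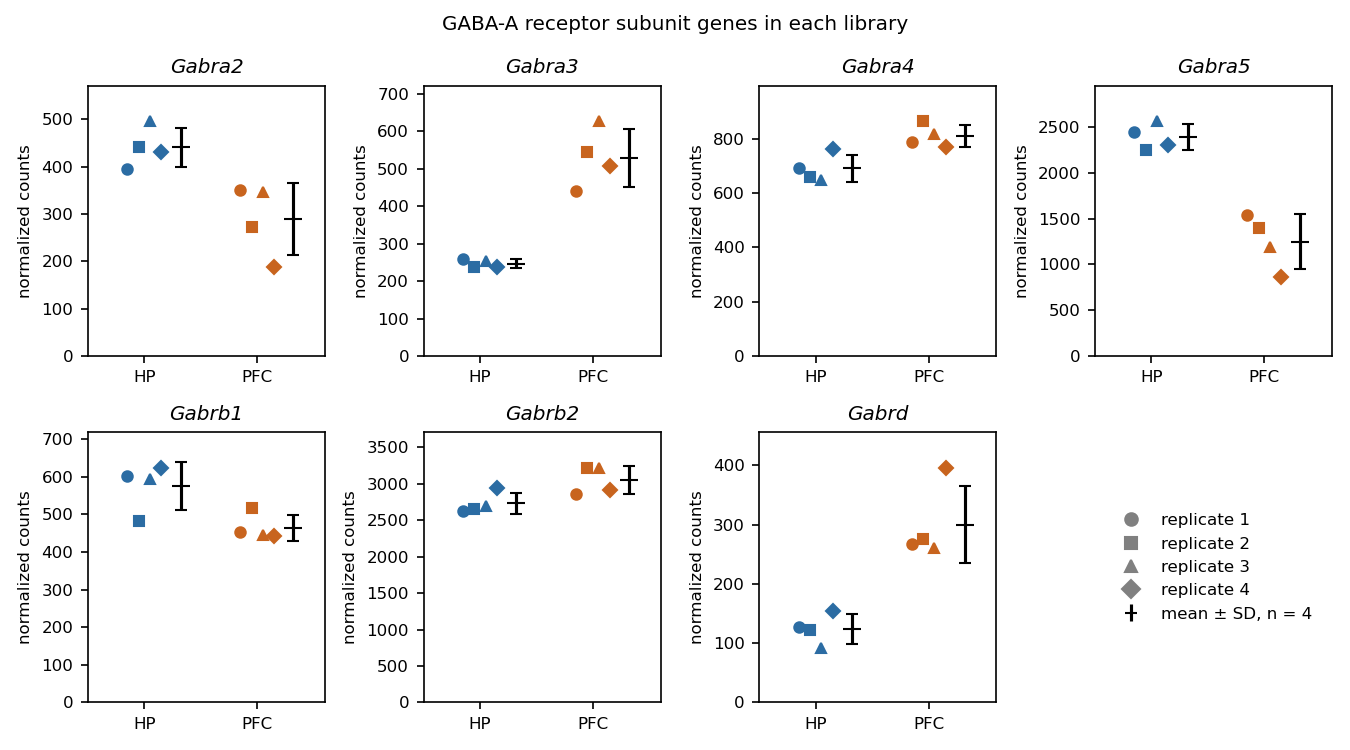
Normalized counts (y axis, from 0) of the 7 GABA-A receptor subunit genes in each HP and PFC library, with the symbol giving the replicate number and the bar the mean ± SD of 4 libraries. The HP and PFC points lie apart for *Gabra2, Gabra3, Gabra4, Gabra5* and *Gabrd*, and overlap for *Gabrb1* and *Gabrb2*.

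*Gabra5* (ENSMUSG00000055078, chr7:64663060-64765379, NCBIM37) encodes the alpha5 subunit. It had 2449.8, 2246, 2562 and 2308 normalized counts in HP replicates 1 to 4 and 1542, 1399, 1193 and 861 in PFC replicates 1 to 4. Each HP library lay above every PFC library, and the PFC libraries were spread more widely than those of the HP. The means were 2391 ± 142 and 1248 ± 295 normalized counts (SD, n = 4), which is 1.92-fold higher in the HP (limma log2 fold change 0.97 with an SE of 0.14, adjusted p = 0.00064). A gene on the opposite strand, *Gm9962*, shares 118 bases (4.45%) of its exons, and it had a mean of 1.99 normalized counts. Without PFC replicate 4, the lowest library, the log2 fold change was 0.80 (adjusted p = 0.0011 from limma).

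*Gabra2* (ENSMUSG00000000560, chr5:71352296-71487088) encodes the alpha2 subunit, known from synapses on the axon initial segment of pyramidal neurons. It had 395, 442, 496 and 429.7 normalized counts in the HP libraries and 350.4, 272, 347 and 188 in the PFC libraries. The regions did not overlap, but PFC replicate 1 came close to HP replicate 1. The means were 441 ± 41.8 and 289 ± 76.4 normalized counts, 1.52-fold higher in the HP (limma log2 fold change 0.64 with an SE of 0.17, adjusted p = 0.034). This call was the weakest of the 4. It was lost without HP replicate 1, 3 or 4 or without PFC replicate 2 or 4 (adjusted p = 0.051, 0.12, 0.074, 0.089 and 0.104 from limma) and with no filter on low values (adjusted p = 0.058), and without PFC replicate 4 the log2 fold change was 0.45.

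*Gabra3* (ENSMUSG00000031343, chrX:69678020-69902187) encodes the alpha3 subunit, known from the cortex and from monoaminergic neurons, among other sites. It had 259.7, 238, 253 and 238 normalized counts in the HP libraries, which differed little, and 441, 545, 627 and 507 in the PFC libraries. The lowest PFC library lay far above the highest HP library. The means were 247 ± 11.0 and 530.1 ± 77.7 normalized counts, 2.15-fold higher in the PFC (limma log2 fold change -1.09 with an SE of 0.12, adjusted p = 5.9e-05). This gene had the smallest adjusted p of the 7, and it passed in all 18 alternatives, with a log2 fold change between -1.173 and -1.004.

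*Gabra4* (ENSMUSG00000029211, chr5:71960973-72049547) encodes the alpha4 subunit, the usual partner of delta. It had 693, 660.1, 648 and 760.0 normalized counts in the HP libraries and 788, 864, 818 and 771 in the PFC libraries. All HP values lay under all PFC values, with HP replicate 4 and PFC replicate 4 nearly level. The means were 690.2 ± 50.4 and 810.2 ± 40.7 normalized counts, and the log2 fold change of -0.23 (SE 0.10, unadjusted p = 0.034, adjusted p = 0.24 from limma) did not pass.

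*Gabrd* (ENSMUSG00000029054, chr4:154759089-154772221) encodes the delta subunit. It had 128, 122, 91.4 and 155 normalized counts in the HP libraries and 267, 276, 261 and 396 in the PFC libraries. The regions did not overlap, and PFC replicate 4 stood above the other PFC libraries. The means were 124 ± 26.0 and 300.1 ± 64.3 normalized counts, 2.42-fold higher in the PFC (limma log2 fold change -1.27 with an SE of 0.18, adjusted p = 0.00037), the largest fold change of the 7. Without PFC replicate 4 the log2 fold change was -1.13 (adjusted p = 0.0029 from limma).

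The beta genes differed less than the genes that passed. *Gabrb1* (ENSMUSG00000029212, chr5:72091171-72529628), which encodes the beta1 subunit, had 602, 481, 594 and 624 normalized counts in the HP libraries and 453, 516, 444 and 441 in the PFC libraries. HP replicate 2 lay under PFC replicate 2, and the other HP libraries lay above all PFC libraries. The means were 575 ± 64.0 and 464 ± 35.3 normalized counts (limma log2 fold change 0.31 with an SE of 0.12, unadjusted p = 0.017, adjusted p = 0.16). Without HP replicate 2 the log2 fold change was 0.39 and it passed (adjusted p = 0.0102 from limma), and it also passed with array weights, which gave HP replicate 2 the lowest weight of the 8 libraries (adjusted p = 0.012). *Gabrb2* (ENSMUSG00000007653, chr11:42233259-42446092), which encodes the beta2 subunit, had 2631, 2657, 2699 and 2938 normalized counts in the HP libraries and 2860.2, 3220.3, 3219.8 and 2918 in the PFC libraries. HP replicate 4 reached the lower PFC libraries, and the log2 fold change of -0.16 (SE 0.091, adjusted p = 0.42 from limma) did not pass in any of the 18 alternatives.

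The levels of different genes were set side by side only per kb of annotated exons, which include untranslated parts that may not all be used. In the HP the level of *Gabra5* was 901 ± 53.7 normalized counts per kb, followed by *Gabrb2* with 275 ± 14.2, *Gabrb1* with 186 ± 20.7, *Gabra2* with 184 ± 17.5 and *Gabra4* with 167 ± 12.2. *Gabra3* with 62.9 ± 2.79 and *Gabrd* with 43.1 ± 9.04 normalized counts per kb came last. *Gabrb1, Gabra2* and *Gabra4* overlapped with their neighbours in this order, and the other steps did not. In the PFC the order was *Gabra5* with 471 ± 111 normalized counts per kb, *Gabrb2* with 308 ± 19.4, *Gabra4* with 196 ± 9.86, *Gabrb1* with 150.1 ± 11.4, *Gabra3* with 135 ± 19.8, *Gabra2* with 121 ± 31.9 and *Gabrd* with 104 ± 22.4. There *Gabra5* and *Gabrb2* overlapped in range, although *Gabra5* was higher in each of the 4 libraries. The last 4 genes, from *Gabrb1* down, also overlapped with their neighbours.

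The make-up of the alpha genes within a library was then compared as the share of each in the summed normalized counts per kb of *Gabra2, Gabra3, Gabra4* and *Gabra5*. The share of *Gabra5* was 69.8%, 67.6%, 69.3% and 67.2% in HP replicates 1 to 4 and 56.4%, 53.3%, 47.2% and 45.1% in PFC replicates 1 to 4. It was 18.0 percentage points higher in the HP (68.5% ± 1.26 against 50.5% ± 5.23, SD, n = 4, two-sided exact permutation p = 0.0286). The HP libraries were nearly alike, and each PFC library had a smaller share. The share of *Gabra3* was 5.002%, 4.84%, 4.62% and 4.68% in the HP libraries and 10.9%, 14.0%, 16.8% and 18.0% in the PFC libraries. The difference, HP minus PFC, was -10.1 points (4.79% ± 0.17 against 14.9% ± 3.15, exact permutation p = 0.0286). The share of *Gabra4*, the subunit with arginine at the benzodiazepine site, was 12.7%, 12.8%, 11.3% and 14.2% in the HP libraries and 18.5%, 21.2%, 20.8% and 26.0% in the PFC libraries. The difference was -8.87 points (12.7% ± 1.22 against 21.6% ± 3.13, exact permutation p = 0.0286). The higher share of *Gabra4* in the PFC stands beside a level of *Gabra4* that did not pass the threshold between the regions, and the summed level of the 4 genes was lower in each PFC library than in each HP library. *Gabra2* had 14.0% ± 1.10 in the HP and 12.97% ± 2.06 in the PFC, which overlapped (exact permutation p = 0.37). The value 0.0286 is the smallest that 4 against 4 libraries can give, and with libraries of the same replicate number taken as pairs (a replicate block) the smallest is 0.125, at which all 3 of these differences stood. The 4 shares sum to 100% and are therefore not independent, and no p was adjusted over them.

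**Figure D2:**
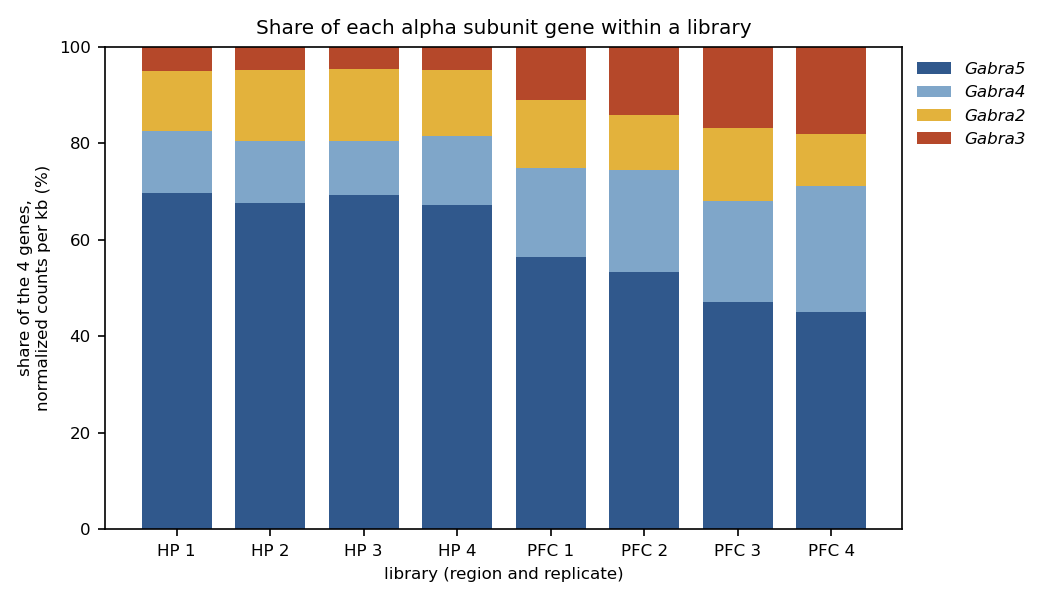
Share (y axis, percent of the summed normalized counts per kb) of *Gabra5, Gabra4, Gabra2* and *Gabra3* in each HP and PFC library (x axis). *Gabra5* takes 67.2% to 69.8% of the bar in the HP libraries and 45.1% to 56.4% in the PFC libraries, while *Gabra3* takes 4.62% to 5.002% and 10.9% to 18.0%.

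Some ratios within a library, chosen after the values were seen, are given as a description. Per kb, *Gabra5* exceeded *Gabra3* 14.3 ± 0.49-fold in the HP and 3.57 ± 1.20-fold in the PFC. *Gabra4* exceeded its partner *Gabrd* 3.78-, 3.76-, 4.94- and 3.42-fold in the HP libraries and 2.05-, 2.18-, 2.19- and 1.36-fold in the PFC libraries. The regions did not overlap in either ratio. *Gabrb2* exceeded *Gabrb1* 1.49 ± 0.16-fold in the HP and 2.06 ± 0.14-fold in the PFC, also without overlap, although neither gene passed alone.

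The gamma subunits join most alpha and beta subunits in synaptic receptors, and the genes of 2 of them are neighbours of the alpha genes described above. *Gabrg3*, a gamma subunit of low abundance in the adult brain, had 574.7, 545, 593 and 661 normalized counts in the HP libraries and 765, 819.8, 907 and 804 in the PFC libraries. All HP values lay under all PFC values (limma log2 fold change -0.47 with an SE of 0.10, adjusted p = 0.012), and the call was lost with a replicate block and without PFC replicate 3 (adjusted p up to 0.065). *Gabrg1* had 199 ± 11.6 normalized counts in the HP and 219 ± 28.2 in the PFC, a log2 fold change of -0.13 that did not pass (limma adjusted p = 0.73). The genes *Gabra6, Gabre, Gabrp, Gabrq, Gabrr1, Gabrr2* and *Gabrr3* had means under 20 normalized counts, and the 5 of these 7 that were tested did not pass in limma or edgeR, nor in limma at an unadjusted p under 0.05. DESeq2 gave an adjusted p for *Gabrq* alone of these, which did not pass (0.396).

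**Figure D3:**
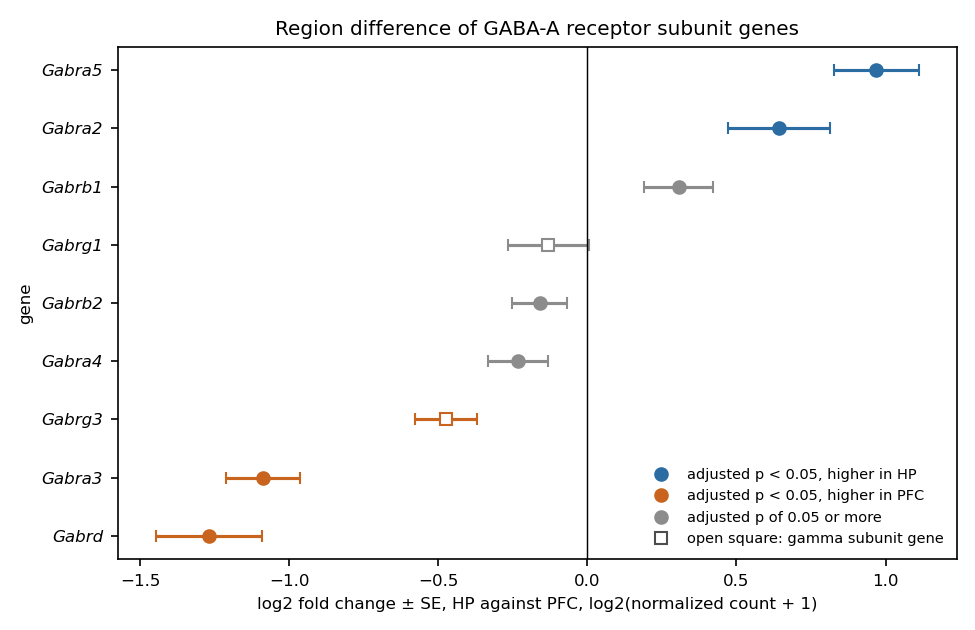
Log2 fold change ± SE of HP against PFC (x axis, on log2(normalized count + 1)) for the 7 genes of the rule (filled circles) and the neighbouring gamma subunit genes *Gabrg1* and *Gabrg3* (open squares) on the y axis. Of the genes past the threshold, *Gabra5* and *Gabra2* lie on the HP side, and *Gabra3, Gabrd* and *Gabrg3* on the PFC side. Of those that did not pass, *Gabrb1* lies on the HP side, and *Gabra4, Gabrb2* and *Gabrg1* on the PFC side.

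Most of these genes lie in clusters of alpha, beta and gamma genes, and the genes of a cluster did not all differ in the same direction. On chromosome 5, *Gabrg1, Gabra2, Gabra4* and *Gabrb1* lie within 1.39 Mb, with log2 fold changes of -0.13, 0.64, -0.23 and 0.31, of which *Gabra2* alone passed. On chromosome 7, *Gabrg3* and *Gabra5* lie next to each other, with log2 fold changes of -0.47 and 0.97. There *Gabrg3* was higher in the PFC and *Gabra5* in the HP, both past the threshold. On the X chromosome, *Gabra3* lies between *Gabre* and *Gabrq*. *Gabrq*, named here for this place, had a mean of 14.8 normalized counts and a log2 fold change of -0.61 that did not pass (adjusted p = 0.43 from limma). *Gabrd* on chromosome 4 has no subunit gene within 1 Mb.

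Genes of the same pathway were counted by list. Of 17 genes of receptor anchoring and traffic, among them the scaffold gephyrin, 0 passed in limma, edgeR or DESeq2, while 3 had an unadjusted p under 0.05 in limma, beside 16.9% of all genes tested, and their median log2 fold change was 0.0087. Of 8 genes of GABA synthesis, vesicular loading, uptake and breakdown, 0 passed in limma or edgeR, 1 passed in DESeq2 and 3 had an unadjusted p under 0.05 in limma (median log2 fold change -0.103). The DESeq2 call was *Slc32a1*, the vesicular GABA transporter, named after its values were seen (limma log2 fold change -0.53, adjusted p = 0.070). Of 5 GABA-B receptor genes 4 were tested, of which 0 passed with any of the 3 tools and 1 had an unadjusted p under 0.05 in limma (median log2 fold change -0.17). Of 4 cation-chloride cotransporters, 1 was higher in each region. *Slc12a2*, which brings chloride into cells, had 1107, 798, 955 and 1183 normalized counts in the HP libraries and 692, 776, 613 and 586 in the PFC libraries (limma log2 fold change 0.59 with an SE of 0.13, adjusted p = 0.012). *Slc12a5*, the neuronal chloride exporter on which inhibition by GABA-A receptors depends, had 2339, 2415, 2196 and 2379 normalized counts in the HP libraries and 2788, 3039.5, 3225 and 3684 in the PFC libraries (limma log2 fold change -0.44 with an SE of 0.10, adjusted p = 0.013). Neither gene overlapped between the regions.

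The genes whose values followed those of a subunit most closely were found by the root mean square difference of centred log2(normalized count + 1) over the 8 libraries, among the 12956 genes whose mean reached 20 normalized counts. For *Gabra5* they were *Sema5a* (0.087), *Dcn* (0.094) and *Dock4* (0.10), and for *Gabra2* they included *Chpt1* (0.14) and *Ddit4* (0.14), with the difference on the log2 scale in parentheses. For *Gabra3* they were *Dpp4* (0.104), the potassium channel subunit gene *Kcnv1* (0.12) and *Herc6* (0.12). For *Gabrd* they were *Rgs4* (0.12), *Dusp14* (0.14) and the dopamine receptor gene *Drd2* (0.16). The median difference over all these genes lay between 0.484 (*Gabra2*) and 0.72 (*Gabrd*). Each gene was centred on its mean over both regions, so the measure favours genes with a like difference between the regions. Likeness among the libraries of a region was not tested apart from it.

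Markers of the regions' own cells and of neighbouring tissue also differed between the regions. Of 8 dentate granule neuron genes 6 were higher in the HP, and their summed level was 7147 to 8222 normalized counts in the HP libraries and 4414, 4304, 3259.9 and 2423 in PFC replicates 1 to 4. *Gabra5* ranked the PFC libraries in the same way, as did the sums of the CA pyramidal and oligodendrocyte lists below. *Gabra2* did not, although it too was lowest in PFC replicate 4. Of 8 CA pyramidal neuron genes 6 were higher in the HP, with sums of 4945 to 5945 in the HP libraries and 3938, 3800.4, 2906 and 2459.8 in the PFC libraries. Of 10 striatal projection neuron genes all 10 were higher in the PFC, with sums of 1416 to 1698 in the HP libraries and 2785, 3612, 3841 and 5466 in the PFC libraries, and the highest sum and the highest value of *Gabrd* were both in PFC replicate 4. The other 3 PFC libraries were nearly level in *Gabrd* while their striatal sums differed. *Gabrd* is also known from dentate granule cells, and it was higher in the PFC, where each library had a smaller dentate sum. Of 7 upper cortical layer genes 6 were higher in the PFC (4815 to 5417 in the HP libraries and 9652 to 12627 in the PFC libraries). The 8 deep cortical layer genes went both ways, with 3 past the threshold towards the PFC and 1 towards the HP, and their sums overlapped (2236 to 2667 against 2584 to 2893). All 5 oligodendrocyte genes were higher in the HP, with sums of 100185 to 106997 in the HP libraries and 70312, 68891, 51005 and 48195 in PFC replicates 1 to 4. Of 7 GABAergic interneuron genes 2 were higher in the PFC (2643 to 4235 against 3405 to 4551). Of 6 thalamic neuron genes, named here because their neurons carry *Gabrd* and *Gabra4*, 5 were tested and 2 were higher in the HP (466 to 535 against 351 to 427). The choroid plexus list had 9 of its 10 genes higher in HP (3516 to 7978 against 557 to 3017). Such sums follow the genes of highest level. Most of the choroid plexus sum came from *Ttr*, named after its values were seen (3102 to 7504 against 474 to 2824). Of 6 olfactory bulb neuron genes 4 were higher in the PFC (141 to 200.1 against 359.6 to 522). Of 5 astrocyte genes 1 was higher in the HP (12088 to 13098 against 9354 to 10681), and of 6 genes of neurons in general 1 was higher in the PFC, with sums that overlapped (40626 to 54080.2 against 51839 to 59478). No marker of these lists was at 0 in all libraries. The part of these cells in the differences of *Gabra5, Gabra2, Gabra3* and *Gabrd* was not tested.

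**Figure D4:**
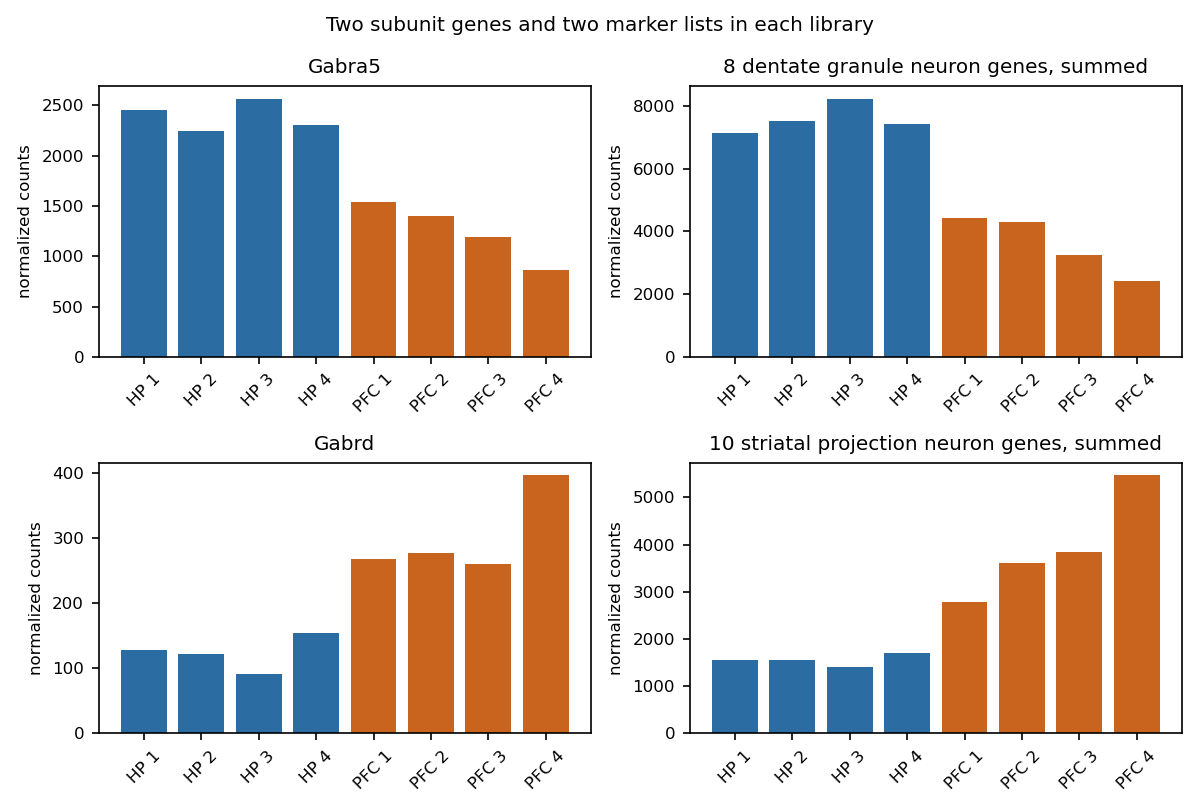
Normalized counts (y axis, from 0) of *Gabra5* and *Gabrd*, and the summed normalized counts of 8 dentate granule neuron genes and 10 striatal projection neuron genes, in each library (x axis, blue for HP and orange for PFC). Among the PFC libraries, replicate 4 has the lowest value of *Gabra5* and of the dentate list (2423) and the highest value of *Gabrd* and of the striatal list (5466). It also had the lowest sums of the CA pyramidal, oligodendrocyte and choroid plexus lists and the highest of the olfactory bulb list, which are not drawn. The upper cortical layer sum was highest in replicate 3 instead.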

How the data were processed

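The authors aligned trimmed reads to NCBIM37 (TopHat2 2.0.9), counted them by gene name irrespective of strand (HTSeq 0.6.0) and scaled the counts by DESeq size factors. The deposited signal is this normalized count per gene and library, in 8 columns. Multiplied by the size factor (the inverse of a library's smallest value above 0), 100% of the values came within 1e-06 of a whole number, and these whole reads were used as counts. Gene positions and exon lengths came from GENCODE M1 (NCBIM37). Regions were compared with limma 3.58.1 (variance trend, two-sided) on log2(normalized count + 1), and as alternatives with edgeR 4.0.16 and DESeq2 1.42.0 on the recovered reads, in R 4.3.3, with shares, exact permutation tests and figures made in Python 3.11.15. The method was tested on simulated data. The replicate number was not used as a block, because the labels do not say which samples share mice. All 7 genes of the rule were named, with other subunit genes whose mean reached 20 normalized counts, the 2 genes past the threshold with the largest fold change of each pathway list, and the 3 genes most like each called subunit. Some genes that this rule names, and the shares that need them (those with further alpha genes in the denominator among them), are not reported here. The genes and lists were chosen with earlier results of these data known. Cufflinks 2.1.1 FPKM values were not used here.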

Additional observations from a re-analysis of the deposited data

Results flagged for a closer look

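Over 22 groups of 4 libraries (the counts of the 7 genes and the shares of the 4 alpha genes in each region), 2 libraries stood far from the other 3 of their group, where chance gives about 1 in 20 groups. *Gabrd* had 396.1 normalized counts in PFC replicate 4, which lay 0.885 of the range of the PFC libraries above the next one. *Gabrb1* had 516.0 normalized counts in PFC replicate 2, which lay 0.836 of the range above the next one.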

How the results depend on the processing

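The number of the 7 genes past the threshold was 4, and between 3 and 5 in the 18 alternatives. *Gabra3, Gabra5* and *Gabrd* passed in all 18, *Gabra2* in 12 and *Gabrb1* in 2, and no log2 fold change turned its sign. Over all genes 1124 passed, and 2441 with array weights, 729 with a replicate block, and 732, 2216, 667, 573 and 579 without HP replicate 1, 2 or 3 or without PFC replicate 3 or 4. With a replicate block the same 4 genes passed. By the labels, same-numbered HP and PFC samples share only a number, and whether they share mice is not given. The deviations of same-numbered samples correlated at -0.13, -0.086, 0.029 and 0.019 across genes. For the shares, a sign-flip test with the replicate block left the differences of -10.14 (*Gabra3*), -8.874 (*Gabra4*) and 17.99 (*Gabra5*) points at p = 0.125, the smallest that 4 pairs can give in this exact test. Depth limits the rare subunit genes, and no scaling shifted the median over all genes by 0.1 or more (log2).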
